A study of Caenorhabditis elegans with 7 samples.

Results

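The genes described here encode 3 families of enzymes that handle foreign and internal small molecules: the cytochrome P450 genes (cyp), the UDP-glucuronosyltransferase genes (ugt) and the glutathione S-transferase genes (gst) of Caenorhabditis elegans. They were taken by name from the authors' deposited comparison of gene expression, every symbol made of cyp with a family number, a subfamily letter and a gene number, or of ugt or gst with a number. This gave 143 of the 13436 genes in that comparison, 54 cyp, 52 ugt and 37 gst, of 44968 features counted in all. Genes whose levels were too low for the authors' filter are therefore outside the count, as are family relatives with other names such as gsto-1 and daf-9.

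Messenger RNA came from whole, starved first-stage (L1) larvae of the wild type strain N2, and the groups differ by what the parents ate. Parents of the ad libitum group (AL progeny, 3 libraries, A to C) grew with HB101 bacteria at 25 mg/mL, and parents of the dietary restriction group (DR progeny, 4 libraries, A to D) at 3.1, for which the labels and the deposited notes give different units. All parents had been kept at 20 °C on OP50 bacteria and then spent 96 hr in S-complete liquid at 100 µL per embryo. Embryos of both groups were released by bleaching, hatched in S-basal without food and were frozen after 24 hr, so no larva in either group had been fed. The series calls the libraries biological replicates without saying what each shares with another, so p-values measure the spread between these libraries.

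Cytochromes P450 are haem enzymes that add oxygen to lipids, steroids and foreign compounds, the first phase of detoxification. UDP-glucuronosyltransferases then attach a sugar, and glutathione S-transferases attach glutathione or reduce peroxides, which makes the products easier to export. In worms many of these genes are expressed in the intestine and respond to toxins, oxidative stress and food through regulators such as SKN-1 and nuclear hormone receptors, and several genes of each family lie side by side in tandem arrays.

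Feature totals ran from 16626117 to 22952310 counts per library, and 3 counts, the limit that a count of 0 allows, equal 0.131 to 0.180 CPM (counts per 1 000 000 counts of a library), counting error only. Ribosomal RNA took 7.54% to 12.2% of the counts in 6 libraries and 22.5% in DR D. File names begin their library label with BB1 in 4 libraries (DR A to DR C and AL A) and with BB2 in 3 (DR D, AL C and AL B), a prefix whose meaning is not given in the sources used here. All values below are CPM scaled by TMM factors, except that counts of libraries above 1 CPM use unscaled CPM. Intestine markers had 4646 to 7101 summed CPM in DR and 6800 to 8135 in AL progeny, with a median log2 fold change of −0.162 and 7 of 10 lower in DR, and in RNA of whole larvae fewer cells of a type and less RNA per cell cannot be told apart. Germline markers summed to 65.0 to 82.9 CPM in 6 libraries and to 101 in DR C, where the eggshell proteoglycan gene cpg-2 had 16.4 CPM against 2.71 to 4.79 elsewhere. The muscle marker hlh-1 is listed at 0 in every library, while the other 4 muscle markers were all lower in DR, with a median of −0.296. The part of these marker levels and of the rRNA share in the results below was not tested beyond the fits named.

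All 3 families were transcribed in the starved larvae of both groups, and glutathione S-transferase genes stood highest for their length. Per kilobase of exon, the median gene had 15.1 CPM per kb in the gst family, 3.86 in the ugt family and 2.77 in the cyp family, beside 8.41 over all genes tested. The family medians cover only genes past the authors' filter, while the genes tested passed a looser filter. A minimum in CPM is also a higher minimum per kb for a shorter gene. Family genes outside the members numbered 24 cyp, 15 ugt and 7 gst. Of the gst genes 23 of 37 exceeded 10 CPM per kb, against 10 of 52 ugt and 9 of 54 cyp genes. Of the 143 genes 130 exceeded 1 CPM in all 7 libraries. For 8 genes at least 3 DR libraries but fewer than 3 AL libraries exceeded the authors' minimum of 1 CPM, 5 of them with 1 AL library above it (cyp-34A3, cyp-13A12, cyp-14A1, cyp-34A7 and gst-25), and for 2 genes all 3 AL libraries but fewer than 3 DR libraries did. Such genes could have entered the comparison through one group, and counts of members by direction include them. The counts of 8 and 2 are not alike, since 3 of 4 DR libraries but all 3 AL libraries had to pass. The share over all features was not counted.

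**Figure D1:**
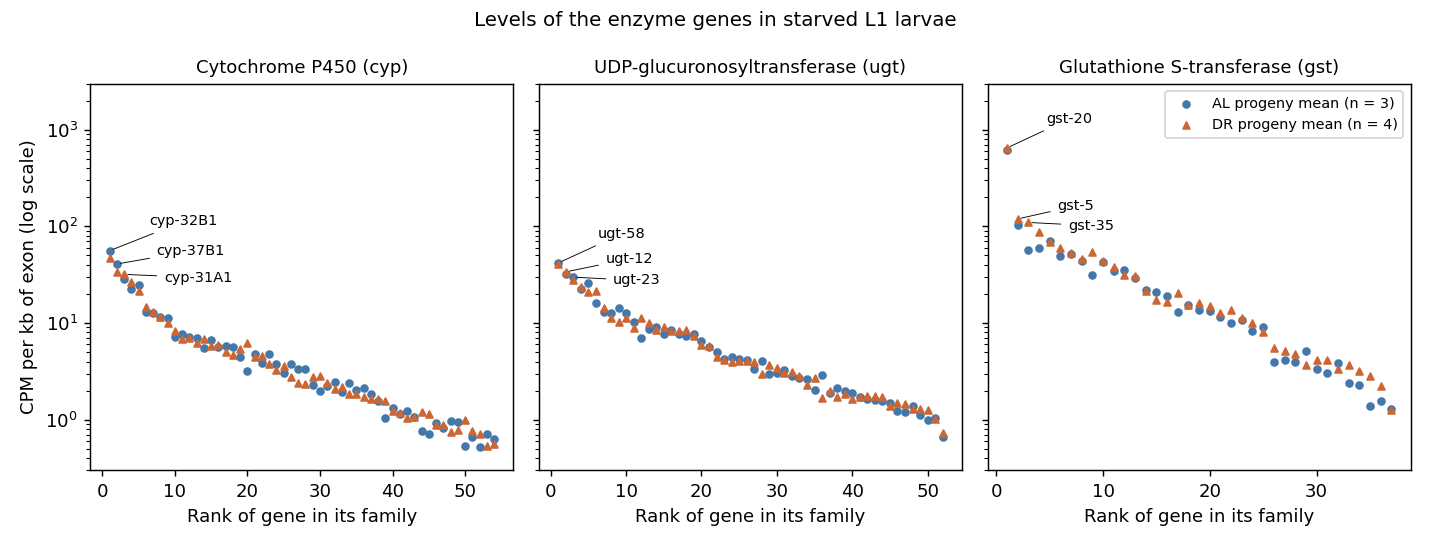
Mean level of each gene in CPM per kb of exon (log axis) against its rank in its family, circles for AL progeny (n = 3) and triangles for DR progeny (n = 4). The gst panel starts at 633 CPM per kb with gst-20, while the cyp panel starts at 51.2 and the ugt panel at 41.3, and the 2 groups of progeny follow each other down each family.

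A single gene, gst-20, made up 41.3% of the summed level per kb of the gst family. It had 395, 509 and 601 CPM in AL A, B and C and 608, 563, 550 and 396 CPM in DR A to D. The lowest libraries were AL A and DR D, 1 of each group, and the groups overlapped (log2 fold change 0.08 ± 0.17, SE). The next gst genes by level per kb were gst-5 at 113, gst-35 at 87.1, gst-24 at 75.4 and gst-27 at 70.5. The proteins of gst-5 and gst-24 are known to conjugate 4-hydroxynonenal, a product of lipid peroxidation.

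Among cyp genes cyp-32B1 led with 51.2 CPM per kb, followed by cyp-37B1 at 37, cyp-31A1 at 30.4, cyp-33C3 at 24.9 and cyp-37A1 at 22.9. Of these cyp-31A1 is annotated as a pseudogene, as are cyp-34A3 and cyp-25A5. Its relative cyp-31A3, which serves the lipid layer of the eggshell in embryos, had 0.723 CPM per kb. The ugt family was led by ugt-58 at 41.3, ugt-12 at 33.2, ugt-23 at 28.7, ugt-50 at 23.3 and ugt-49 at 23.2 CPM per kb. Between libraries ugt-50 was the steadiest of these, at 43.2 to 49.5 CPM, though 340 bases of its exons overlap nhr-26 on the opposite strand, and the library kit does not keep the strand.

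The genome annotation names 46 more genes of these families that were absent from the members because of low values or a missing symbol. The 24 cyp genes among them reached at most 1.28 CPM in any library and the 7 gst genes 1.1 CPM. They include cyp-35A1, cyp-35A3, cyp-35A4, cyp-35A5, cyp-35B2 and cyp-35C1, known for their strong induction by drugs, and cyp-14A2 to cyp-14A4, cyp-31A2 and gst-44. Their relative cyp-35A2, which also affects fat storage, was the one cyp-35A gene among the members, at 8.60, 8.62 and 9.74 CPM in AL and 7.50, 8.35, 7.77 and 5.75 CPM in DR progeny, without overlap. Among the 15 ugt genes outside the members, ugt-36 was listed at 0 and ugt-66, which the authors list without a symbol, had 1.44 to 3.96 CPM in 6 libraries and 9.26 CPM in DR D.

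Setting DR beside AL progeny addresses whether transcripts of these enzymes in unfed offspring differ with the diet of the parents. No cyp, ugt or gst gene passed an adjusted p of 0.05 in edgeR's quasi-likelihood test over 14867 genes, where 0.0135% of all genes tested passed. The lowest adjusted p was 0.371 in the cyp family, 0.371 in the ugt family and 0.374 in the gst family. At an unadjusted p under 0.05, 5 of 54 cyp genes (9.26%), 5 of 52 ugt genes (9.62%) and 6 of 37 gst genes (16.2%) were found, where 10.7% of all genes were. With 1 library left out these counts ran from 4 to 9 for cyp genes (9 without DR C and 8 without AL A), from 5 to 8 for ugt genes (8 without DR A) and from 3 to 11 for gst genes (3 without AL A, AL B or DR B, 10 without DR A and 11 without AL C). The share of all genes ran from 5.85% without AL B to 12.0% without DR C. AL and DR libraries did not overlap for 6 cyp genes (11.1%), 5 ugt genes (9.62%) and 2 gst genes (5.41%), beside 11.9% of all genes. DR libraries lay above AL libraries for 2 genes of each family, where 5.97% of all genes did, and below for 4 cyp, 3 ugt and 0 gst genes, where 5.88% did. For the 143 genes together the shares were 11.2% with that p and 9.09% without overlap. Some other fits called members. Within prefix BB2 cyp-34A1, cyp-37B1, ugt-25, ugt-54, gst-28 and gst-35 passed, where 4.08% of all genes did. Without a filter on low counts cyp-34A1, ugt-25 and ugt-29 passed (0.301% of all genes), and by the edgeR exact test no member did (0.161% of all genes). Exons of 39 of the 143 genes overlap another annotated gene, for 33 of them on the opposite strand.

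The families differed in how their genes leaned. Of 37 gst genes 29 had more RNA in DR progeny, with a median log2 fold change of 0.165, while 51.6% of all genes tested did, with a median of 0.008. The cyp family was divided, 25 higher and 29 lower with a median of −0.045, and the ugt family was split evenly at 26 and 26 with a median of −0.006, or 0.009 with upper quartile scaling. With 1 library left out these medians ran from −0.081 to 0.015 for cyp and from −0.055 to 0.056 for ugt genes. All 6 gst genes with an unadjusted p under 0.05 were higher in DR progeny, where 5.39% of all genes were higher and 5.35% lower at that level. Genes are not independent of each other, and the lean was not tested as a list.

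**Figure D2:**
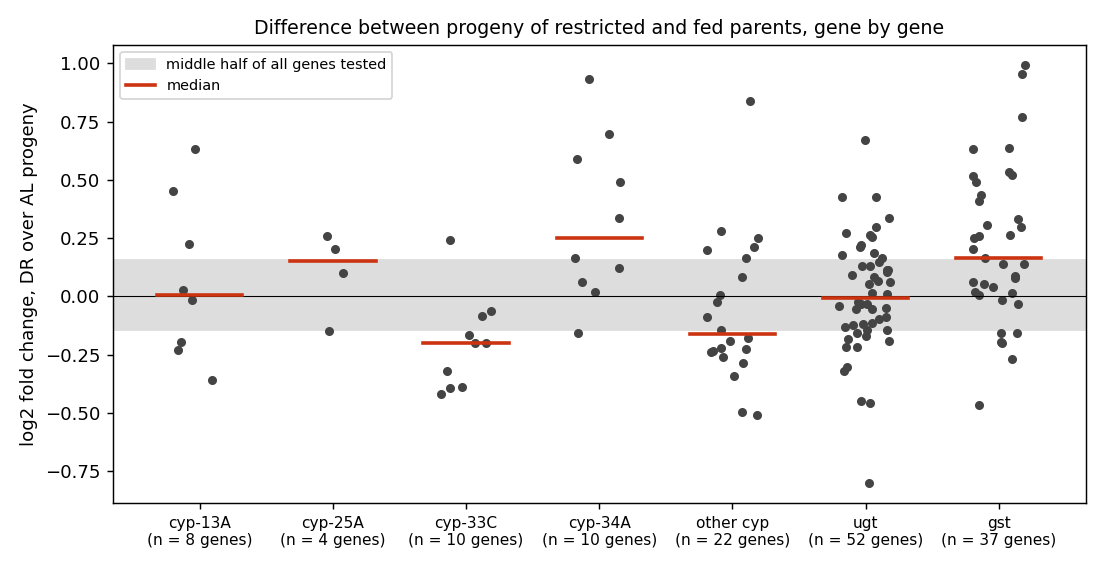
Log2 fold change of DR over AL progeny for each gene (points), by family and for the 4 largest cyp subfamilies, with the median of each group (red bar) and the range from the lower to the upper quartile of all genes tested (grey band). The gst points lie mostly above 0 with a median of 0.165, cyp-34A sits high at 0.251 and cyp-33C low at −0.201, and no point passed the adjusted threshold.

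Summed over its genes the gst family had 987, 1074 and 1291 CPM in AL A, B and C and 1258, 1295, 1406 and 1083 CPM in DR A to D. AL C had a larger sum than DR A, and DR D was close to AL B, so the groups overlapped. Without gst-20 the sums were 592 to 690 CPM in AL and 650 to 856 CPM in DR progeny, again overlapping. DR C was the highest library for 15 of 37 gst genes and AL B the lowest for 15, while over all genes tested DR C was highest for 17.2% and AL B lowest for 18.8%. With 1 library left out 23 to 31 of 37 gst genes were higher in DR. The fewest were 23 without AL A (62.2%), with a median of 0.137, and the most 31 without AL C, with a median of 0.311. The smallest median was 0.088 without DR C, where 26 were higher. Within prefix BB1 31 of 37 were higher with a median of 0.328, but within BB2 only 16 of 37 with a median of −0.035. Each prefix holds a single library of one group, AL A in BB1 and DR D in BB2, so these values rest on that library.

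The gst gene with the smallest p was gst-28, on chromosome II. It had 11.9, 7.20 and 10.8 CPM in AL A, B and C and 12.4, 14.5, 15.7 and 19.7 CPM in DR A to D. No AL library reached the lowest DR library, DR A, which stood just above AL A. The mean was 9.96 ± 2.45 CPM (SD, n = 3) in AL and 15.6 ± 3.05 CPM (SD, n = 4) in DR progeny. The log2 fold change was 0.63 ± 0.19 (SE), with an adjusted p of 0.374 in edgeR's test.

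The levels of gst-12 were 28.3, 20.7 and 33 CPM in AL and 31.4, 46.1, 59.4 and 49.8 CPM in DR progeny. DR A lay among the AL libraries while DR B, C and D lay above them, with a log2 fold change of 0.77 ± 0.23 (SE, adjusted p = 0.376, edgeR). In the authors' deposited table this was the one gene of the 143 with an adjusted p under 0.05, at 0.0459 and a log2 fold change of 0.77, and 38 of its 13436 genes passed. The authors' test was an edgeR exact test, and the same kind of test over 14867 genes left no gst gene under 0.05 here.

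Another gst gene, gst-24, had 47.3, 35.8 and 49.8 CPM in AL and 59.9, 47.8, 78.8 and 70.6 CPM in DR progeny. DR B lay just under AL C, and the log2 fold change was 0.53 ± 0.18 (SE, adjusted p = 0.376, edgeR). The widest step among well-expressed gst genes was that of gst-35, with 45.2, 36 and 49.6 CPM in AL and 38.6, 99.1, 121 and 80.2 CPM in DR progeny. DR A again lay within the AL range, and the other DR libraries stood well above it. The log2 fold change was 0.95 ± 0.39 (SE, adjusted p = 0.467, edgeR), and the authors' deposited table gives it an adjusted p of 0.0735.

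At lower levels gst-25 had 0.908, 0.472 and 1.49 CPM in AL and 1.11, 2.12, 2.82 and 1.66 CPM in DR progeny, and gst-16 had 6.02 to 7.57 and 6.44 to 12.4 CPM. Both overlapped through DR A. The gene gst-33 had 1.6 to 2.02 CPM in AL and 2.03 to 3.23 CPM in DR progeny, the other gst member besides gst-28 with no overlap. Outside the members gst-32 did not overlap either, at 0.288 to 0.590 CPM in AL and 0.823 to 1.09 CPM in DR progeny. Genes of the family known for stress or metabolism stayed within overlapping ranges. The oxidative stress reporter gene gst-4 had 5.27 to 6.72 and 5.81 to 9.76 CPM, with 65 bases of its exons shared with dhs-12 on the same strand. The 4-hydroxynonenal-conjugating enzyme gene gst-10 had 17.8 to 30.3 and 21.5 to 29.96 CPM. The zeta class gene gst-42, whose product acts in tyrosine breakdown, had 17.1 to 24.0 and 13.9 to 22 CPM.

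Among the 11 genes of all 3 families that had more RNA in DR progeny at an unadjusted p under 0.05, DR A was the lowest DR library for 8 (72.7%) and AL B the lowest AL library for 9 (81.8%). Over the 802 such genes of the whole table these shares were 31.7% and 55.2%.

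The gst genes of chromosome II lie in neighbouring groups, and 20 of the 37 are on that chromosome. By the Ensembl release 115 annotation of WBcel235, gst-20, gst-24, gst-15, gst-14, gst-12, gst-16 and gst-19 follow each other with at most 2 other protein-coding genes between, together with gst-17 and gst-18, which were too low to be members. Of these 7 members 6 were higher in DR progeny, with a median of 0.436. The median was 0.395 within prefix BB1, 0.439 within BB2 and 0.284 without DR C, with 5 of 7 higher. The second group runs from gst-26 over gst-27, gst-28, gst-29, gst-39, gst-31 and gst-34 to gst-35. Between gst-31 and gst-34 lies gst-32, which was too low to be a member (log2 fold change 1.05). Of the 8 members 7 were higher, with a median of 0.285. This median was 0.478 within BB1 and −0.193 within BB2, and 0.106 without AL A, 0.112 without DR B and 0.482 without AL C. Neighbours of one array are similar in sequence, and how the authors' counting split reads between them was not checked.

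**Figure D3:**
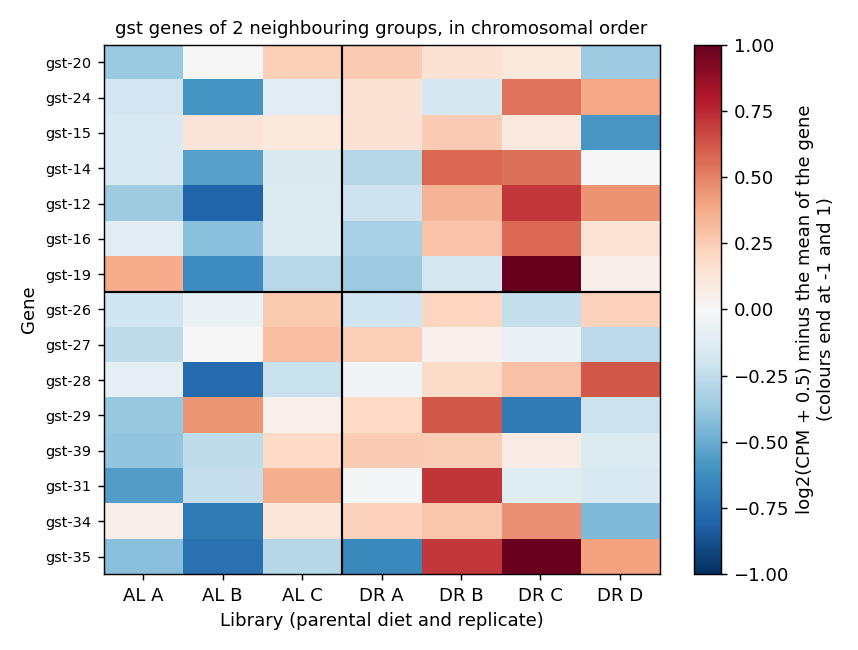
Log2(CPM + 0.5) of the gst genes of 2 neighbouring groups on chromosome II, relative to each gene's mean, for the 7 libraries, with AL left of the line and DR right of it. gst-14, gst-12, gst-16 and gst-35 are red in DR B and DR C and blue in all 3 AL libraries and in DR A, while gst-20 and gst-15 are blue in DR D.

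The genes of a group differed in the libraries where they were high. In the first group gst-20 and gst-15 had their lowest DR value in DR D, 396 and 10.7 CPM, whereas gst-24 and gst-12 were high there, at 70.6 and 49.8 CPM. In the second group gst-29, a gene near 1 CPM, was lowest in DR C, the library in which gst-35 was highest. On chromosome IV gst-3, gst-2 and gst-4 were all higher in DR progeny, with a median of 0.251 and overlapping groups for each.

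Cytochrome P450 genes were divided by subfamily. Of 10 cyp-34A genes 9 were higher in DR progeny with a median of 0.251, and of 10 cyp-33C genes 9 were lower with a median of −0.201. The cyp-13A genes were split 4 and 4. Of the 13 cyp genes with no other member of their subfamily among the 54, such as cyp-35A2, 12 were lower and cyp-44A1 was higher. In a fit that includes the rRNA share cyp-32B1 (log2 fold change 0.075), cyp-37A1 (0.039), cyp-35B1 (0.008) and cyp-33A1 (0.0003) were higher as well. The others stayed lower there. Within prefix BB1 cyp-13B1 (0.326) and cyp-42A1 (0.118) were higher and cyp-44A1 was lower (−0.012). With 1 library left out the log2 fold change of cyp-35B1 ran from −0.46 to 0.022. No member of any subfamily passed the test, and the difference between subfamilies was not tested.

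The cyp gene with the smallest p was cyp-34A1. It had 6.57, 3.72 and 5.04 CPM in AL A, B and C and 6.73, 10.1, 12.4 and 10.2 CPM in DR A to D. All DR libraries lay above all AL libraries, though DR A exceeded AL A by only a little. The mean was 5.11 ± 1.43 CPM (SD, n = 3) in AL and 9.85 ± 2.33 CPM (SD, n = 4) in DR progeny, a log2 fold change of 0.93 ± 0.23 (SE) with an adjusted p of 0.371 in edgeR's test and of 0.0492 by DESeq2, where 0.276% of all genes passed. Another gene of the subfamily, the annotated pseudogene cyp-34A3, had 0.768 to 1.43 CPM in AL and 1.31 to 2.08 CPM in DR progeny, and cyp-34A9, a gene known to respond to insulin-like signalling, had 19.4 to 24.5 and 18.3 to 26.7 CPM. The lean of the subfamily varied with the libraries used. It was 0.371 within BB1 and −0.026 within BB2, with 5 of 10 higher, and 6 of 10 were higher without DR C. The median was 0.399 without AL B. In a fit that includes the rRNA share all 10 were higher with a median of 0.529. Of the 10 genes 9 have an annotated small nuclear or nucleolar RNA gene on the opposite strand, over 89 to 92 bases, and no ugt or gst gene does. The 8 of these small RNA features found in the count files had 0 reads in all libraries. How reads in overlapping genes were handled is not given, so the 0 cannot show whether such reads were absent.

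**Figure D4:**
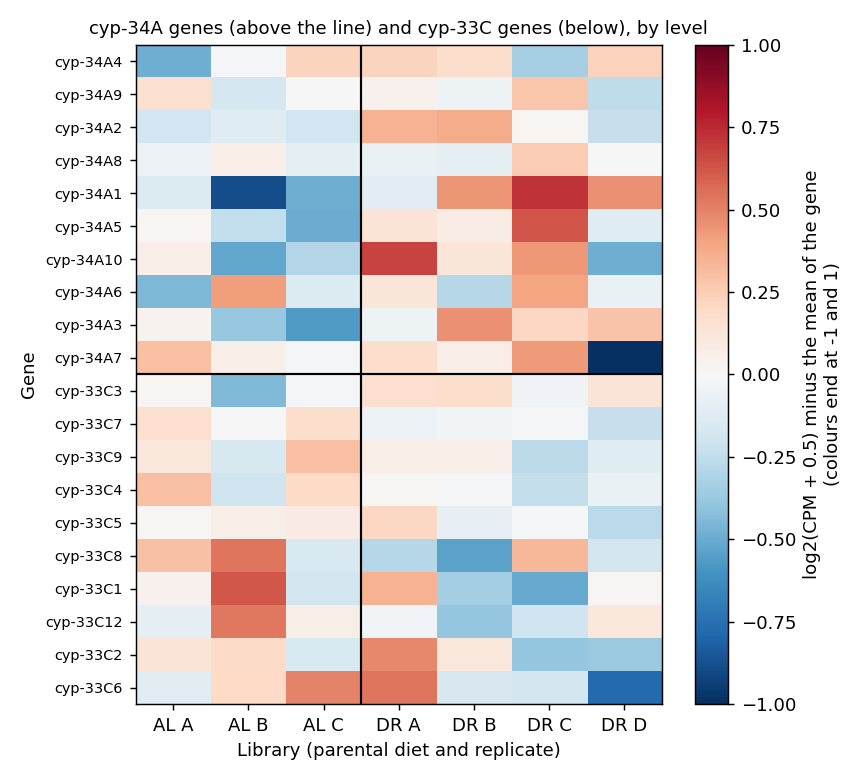
Log2(CPM + 0.5) of the cyp-34A genes (above the line) and cyp-33C genes (below), relative to each gene's mean, in the 7 libraries, genes ordered by level within each subfamily. cyp-34A1 is blue in AL B at −0.884 and red in DR C at 0.724, cyp-34A7 is lowest in DR D, and cyp-33C1 and cyp-33C8 are among the cyp-33C genes that vary between libraries of one group.

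The 10 cyp-33C genes among the members span a wide range of levels, from 0.607 CPM per kb for cyp-33C6 to 24.9 for cyp-33C3. The strongest, cyp-33C3, was the one gene of the 10 that was higher in DR progeny, at 44.6, 32.2 and 43.6 CPM in AL and 49.4, 49.8, 42.9 and 48.2 CPM in DR progeny. It overlapped through DR C. The next, cyp-33C7, had 16.4 to 18.5 CPM in AL and 13.9 to 16.2 CPM in DR progeny, with no overlap and a log2 fold change of −0.20 ± 0.11 (SE). The subfamily median was −0.150 within BB1, −0.304 within BB2 and −0.097 in the fit that includes the rRNA share, where 6 of 10 were lower.

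Other cyp genes without overlap were lower in DR progeny, apart from cyp-13A1. The CPM of cyp-43A1 were 5.1, 6.55 and 5.28 in AL and 3.92, 4.33, 4.64 and 2.88 in DR progeny (−0.51 ± 0.19 on the log2 scale, SE, adjusted p = 0.406, edgeR), and those of cyp-32A1 were 7.09, 8.21 and 8.93 and 6.05, 7.0, 6.89 and 5.49 (−0.34 ± 0.15, SE, adjusted p = 0.443, edgeR). In both DR D was the lowest library. The gene cyp-13A1 had 1.2 to 1.48 CPM in AL and 1.67 to 2.75 CPM in DR progeny. DR D was the lowest library for 18 of 54 cyp genes, beside 22.4% of all genes tested, and it holds the most rRNA.

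**Figure D5:**
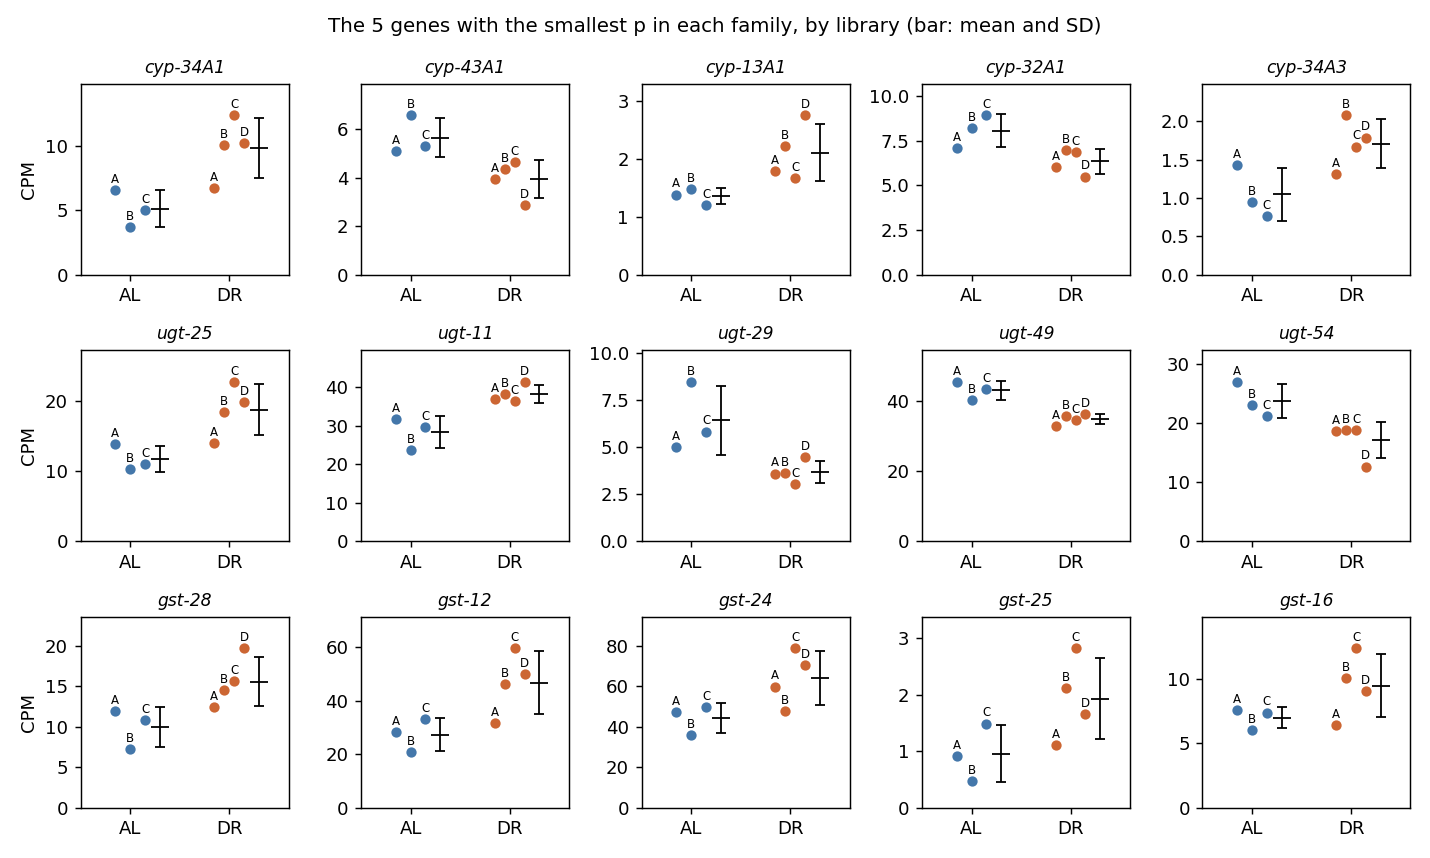
CPM of the 5 genes with the smallest p in each family, by library (points with their replicate letters) and as mean and SD (bars), AL progeny left and DR progeny right. DR A is the DR point closest to the AL points for cyp-34A1, ugt-25, gst-28 and gst-12, and all 4 DR points of ugt-49 lie below its AL points.

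Apart from cyp-35A2, the cytochrome P450 genes listed for their known roles overlapped between the groups. The genes cyp-29A3 and cyp-33E2, linked to eicosanoid synthesis from polyunsaturated fatty acids, had 1.86 to 3.46 and 1.83 to 3.75 CPM for the first and 3.89 to 4.15 and 3.87 to 6.89 CPM for the second, in AL and DR progeny respectively. The rifampicin-inducible gene cyp-13A7 had 1.36 to 2.06 and 1.26 to 1.93 CPM. The mitochondrial P450 gene cyp-44A1 had 9.51 to 12.5 and 11.5 to 13.9 CPM, and cyp-36A1, which acts downstream of the oxygen-sensing HIF-1 pathway, 4.07 to 8.43 and 2.71 to 6.05 CPM. The gene cyp-14A1 had the widest range of the 143, from 0.295 to 2.17 CPM, and its lowest values were in DR B and in the AL libraries B and C. Those 3 libraries also had the highest level of the cuticle collagen gene dpy-7, at 2.02 to 7.36 CPM against 0.365 to 0.532 in the other 4. By narrower margins the hypodermis markers elt-1 and elt-3 were highest there too (elt-3 at 83.2 to 94.1 against 74.8 to 82.6 CPM). The other hypodermis markers, rol-6, dpy-5, lin-26, nhr-23 and qua-1, did not follow, and rol-6 and dpy-5 were highest in AL A. The part of the dpy-7 pattern in the cyp-14A1 values was not tested.

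The ugt family held genes on both sides. ugt-25 had 13.8, 10.2 and 11 CPM in AL A, B and C and 13.9, 18.4, 22.6 and 19.8 CPM in DR A to D. The groups did not overlap, with DR A level with AL A, and the log2 fold change was 0.67 ± 0.17 (SE, adjusted p = 0.371, edgeR). Its exons overlap mlst-8 on the opposite strand by 26 bases. The gene ugt-11 had 31.8, 23.7 and 29.7 CPM in AL and 36.9, 38.2, 36.4 and 41.4 CPM in DR progeny, with a log2 fold change of 0.43 ± 0.11 (SE, adjusted p = 0.371, edgeR). Here all 4 DR libraries stood clear of the AL libraries.

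Lower in DR progeny was ugt-29, at 4.97, 8.44 and 5.81 CPM in AL and 3.58, 3.61, 3.03 and 4.47 CPM in DR progeny (−0.80 ± 0.21 on the log2 scale, SE, adjusted p = 0.371, edgeR). The better expressed ugt-49 had 45.3, 40.2 and 43.4 CPM in AL and 32.8, 35.6, 34.5 and 36.3 CPM in DR progeny (−0.31 ± 0.09, SE, adjusted p = 0.372, edgeR). In both the lowest AL library lay above the highest DR library. The gene ugt-54 had 21.2 to 27.0 CPM in AL, 18.6 to 18.8 CPM in DR A to C and 12.7 CPM in DR D (−0.46 ± 0.15, SE, adjusted p = 0.376, edgeR).

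Other ugt genes overlapped between the groups. ugt-58 had 69.2 to 74.8 CPM in AL and 60.4 to 79.4 CPM in DR progeny, and its log2 fold change was −0.03 ± 0.10 (SE). ugt-22, whose product is linked to tolerance of benzimidazole drugs, had 2.95 to 5.04 and 3.19 to 4.97 CPM. Among ugt genes with a mean of at least 5 CPM the widest range over libraries was in ugt-15, with 2.98 CPM in DR B and 8.57 to 12.2 CPM in the other 6 libraries. Of the ugt genes 29 of 52 are on chromosome V. Of a neighbouring group there (ugt-12, ugt-11, ugt-9, ugt-10, ugt-8 and ugt-13) 5 of 6 were higher, with a median of 0.116 that was −0.127 within BB1, −0.053 without AL B, 0.298 without AL A, 0.225 without DR D and 0.035 without DR C, while ugt-18, ugt-16 and ugt-15 were all lower with a median of −0.155. Over the whole family the median was −0.119 within BB1 and 0.106 within BB2.

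Genes that work with these enzymes were read from the same fit, and none passed. Of 25 regulators of xenobiotic and stress responses 9 were higher and 16 lower in DR progeny, with a median of −0.096. The gene for SKN-1, the main activator of gst genes in oxidative stress, had 158 to 192 CPM in AL and 175 to 204 CPM in DR progeny. Its repressor gene wdr-23 had 114.4 to 128 and 121 to 131 CPM. The hypoxia factor gene hif-1 had 434 to 512 and 395 to 411 CPM and its partner gene aha-1 29.9 to 31.6 and 25.8 to 27.7 CPM, both without overlap. Without overlap were 7 of the 25 regulators (28%), 1 above and 6 below in DR, beside 11.9% of all genes tested. At an unadjusted p under 0.05 in edgeR's test 2 of the 25 were found (8.0%), both lower, beside 10.7% of all genes. The P450 reductase gene emb-8, which passes electrons to the P450 enzymes, had 88.3 to 97.5 and 77.6 to 103 CPM, and daf-9, the P450 gene of dafachronic acid synthesis, had 3.25 to 4.51 and 3.61 to 5.53 CPM.

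Of 15 other oxidising and reducing enzyme genes 7 were higher and 8 lower, with a median of −0.014. The oxidoreductase gene sdz-8 had 5.88, 6.79 and 6.96 CPM in AL and 8.23, 10.4, 13.5 and 9.78 CPM in DR progeny, and the short-chain dehydrogenase gene dhs-8 1.82 to 2.77 and 3.03 to 6.33 CPM. The flavin monooxygenase genes fmo-1 and fmo-4 were lower, at 43.2 to 46.9 and 36.7 to 40.6 CPM for fmo-1 and 21.8 to 28.5 and 12.9 to 20.6 CPM for fmo-4. With dhs-7, at 5.14 to 6.79 and 4.47 to 5.13 CPM, 5 of the 15 genes did not overlap between groups (33.3%), 2 above and 3 below in DR, where 11.9% of all genes tested did not. Of 8 genes that supply glutathione 5 were higher, with a median of 0.083. Glutathione synthetase gene gss-1 had 17.9 to 22.1 CPM in AL and 22.9 to 25.3 CPM in DR progeny, and gcs-1, the gene of the limiting step, 38.6 to 45.6 and 34.4 to 41.9 CPM.

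The omega class glutathione transferase gene gsto-1 went against the lean of the gst genes. It had 6.92, 6.44 and 7.58 CPM in AL and 4.07, 3.61, 3.70 and 5.18 CPM in DR progeny, with a log2 fold change of −0.76 ± 0.17 (SE, adjusted p = 0.371, edgeR). All DR libraries lay below all AL libraries. The 6 tested genes of other conjugation enzymes, gsto-1 among them, were 2 higher and 4 lower, with a median of −0.133. In that list 2 of the 6 did not overlap between groups (33.3%, beside 11.9% of all genes tested), both lower in DR. Its glutathione transferase genes gsto-3 (log2 fold change −0.07), gstk-1 (0.05) and gstk-2 (0.12) overlapped. Of 30 tested genes of membrane export pumps 11 were higher and 19 lower, with a median of −0.129. The pump gene pgp-5, linked to resistance to heavy metals, had 8.04, 12.0 and 10.4 CPM in AL and 5.47, 4.88, 7.15 and 6.64 CPM in DR progeny, and mrp-3 22.4 to 23.8 and 14.7 to 19.3 CPM. In the other direction pgp-14, which acts in the lining of the pharynx, had 37.2 to 41.3 and 41.9 to 58.9 CPM. The adjusted p of these 3 lay between 0.371 and 0.372 in edgeR's test. Of the 30 genes 6 did not overlap between groups (20.0%, beside 11.9% of all genes tested), pgp-14 above and 5 below in DR, which were pgp-5, mrp-3, pgp-8 (1.6 to 2.18 and 0.958 to 1.25 CPM), pgp-2 (24.96 to 26.2 and 19.5 to 24.4 CPM) and haf-9 (128 to 132 and 104 to 121 CPM).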

How the data were processed

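Alignment by Bowtie 1.1.2, counting by HTSeq and a comparison by edgeR are named in the list of tools per the submitters' processing notes. Neither the genome build nor the handling of reads in overlapping genes is given in the sources used here, so coordinates were left out. Raw counts per feature were deposited for each library, and a deposited workbook gives CPM, log2 fold changes, p-values and adjusted p-values by the authors. HTSeq's summary lines (22.2% to 24.0% of reads) were left out.

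The quasi-likelihood test of edgeR 4.0.16 in R 4.3.3 was run on the counts (TMM, filterByExpr, robust fit, two-sided), with Benjamini-Hochberg adjustment over the 14867 genes tested, all 143 members among them. The common biological coefficient of variation was 0.162. Fold changes are log2 of DR over AL, and SE is derived from the F statistic. Levels per kb use exon lengths of Ensembl release 115, which also gave overlaps and neighbours; 4 members have another or no current symbol there. The test procedure was tested on simulated data. Floors cover counting error only.

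The members and gene lists were chosen with earlier results of these data known. Named members are, per family, the 5 with the smallest p, the 5 highest per kb, the 3 with the widest range over libraries at a mean of at least 5 CPM, and genes listed for their literature. Members named beyond these, such as gst-33, cyp-33C7 and others of the groups described, were chosen after their values were seen. Whether replicate letters pair the groups could not be settled. Deviations of same-lettered libraries correlated at 0.197, 0.268 and −0.101, those of other pairs at −0.460 to 0.253, and DR D has no partner. Alternatives were other normalisations and filters, DESeq2 1.42.0, limma-voom (limma 3.58.1), the exact test, a block for the replicate letters, the prefixes of the file names, and leaving out each library; the rRNA share as a covariate was added after seeing the data. The pathway lists gave no match for hizr-1, ugg-1, haf-5 and haf-10. Excretory canal and hypodermis markers both had a median of −0.097, and pan-neuronal markers 0.015. Promoter and protein sequences were not analysed here.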

Additional observations from a re-analysis of the deposited data

Results flagged for a closer look

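In 4 of the 65 named genes, 1 library stood apart from the other 3 of the DR group by Dixon's criterion for 4 samples, which chance alone meets in about 1 of 20 groups. The gene cyp-37B1 had 41.0 CPM in DR D and 63.1 to 66.7 CPM in DR A to C. The gene ugt-54 had 12.7 CPM in DR D and 18.6 to 18.8 CPM in the other DR libraries, and gst-13 had 18.1 CPM in DR D and 25.8 to 27.3 CPM in the others. In DR A, cyp-13A7 had 1.26 CPM, and 1.85 to 1.93 CPM in DR B to D. DR D also has the largest share of rRNA counts, 22.5%, and the part of this in the 3 values was not tested.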

How the results depend on the processing

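The count of genes called over the whole table, 2 in the fit reported, was 1 with library size only, 77 without a filter on low counts, 41 by DESeq2, 24 by the exact test and 0 by limma-voom, without robust estimation, within prefix BB1 or with the rRNA share as a covariate, 616 within BB2, and 0 to 2 with 1 library left out. The replicate block called 4 genes and no member. Whether the letters pair the groups is not given. Called cyp genes numbered 0, but 1 without the filter (cyp-34A1, adjusted p = 0.0167), 1 by DESeq2 and 2 within BB2. Called ugt genes numbered 2 without the filter (ugt-25 and ugt-29) and 2 within BB2, and called gst genes 2 within BB2 (gst-28 and gst-35), where the single DR library, DR D, is assumed to vary like the AL libraries. The median of the cyp genes was −0.122 within BB2 and 0.044 with the rRNA share, that of the ugt genes −0.119 within BB1 and 0.106 within BB2, and that of the gst genes 0.328 within BB1 and −0.035 within BB2. The cause was not tested. No direction of the 15 genes with the smallest p reversed in 330 refits, 8 of which passed the threshold; of 1100 refits of the other 50 named genes 42 moved the value by more than the SD between libraries. The 15 genes were chosen by their p in the fit reported, and the refits use the same libraries, so a kept direction is no independent support. Genes near 1 CPM rest on few reads.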
